A study of Mus musculus with 12 samples.

Results

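The interferon-stimulated genes described here are 35 genes that respond to type I or type II interferon, read in mast cells taken to be unstimulated. All probe sets annotated to their symbols were taken, which gave 46 probe sets for 34 of the genes, out of 19324 genes annotated on the array. Of the 35 genes, 27 were grouped as type I response genes, 7 as interferon-inducible GTPases of the IRG and GBP families, and Irf1 was kept apart because both kinds of interferon induce it. Mast cells were grown from C57BL/6 bone marrow, and their RNA was amplified and hybridised to single-colour Affymetrix arrays. IL3 cultures (6 arrays) were kept for 4 to 6 weeks in interleukin 3 at 30 ng/ml. IL3+SCF cultures (6 arrays) received, besides the same IL3, stem cell factor, the ligand of the receptor KIT, at 100 ng/ml unless the submitters noted otherwise. The submitters judged purity by toluidine blue staining and by surface FceRIa and KIT. The labels name no interferon, virus or antigen, so the values are taken as resting levels. Nothing in them ties a replicate to a culture or an animal of its own, so the spread behind each p-value is that of these arrays and may be technical.

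Type I interferons signal through the receptor chains IFNAR1 and IFNAR2 and the kinases JAK1 and TYK2 to a complex that holds STAT2 and IRF9 and binds the interferon-stimulated response element (ISRE) in front of antiviral genes such as those of the Ifit, Oas and Mx families. Type II interferon, interferon gamma, signals through IFNGR1 and IFNGR2, acts at gamma-activated sites (GAS), and strongly induces the IRG and GBP GTPases that attack the vacuoles of intracellular parasites and bacteria. A low tonic signal keeps part of both programmes transcribed in resting cells.

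The promoter sequences of 28 of the 35 genes were taken from a RefSeq table of build GRCm38.p6, as windows of 300 bases running from 250 before each annotated start to 50 after it. They were searched on both strands for an ISRE-like core, which is 2 GAAA blocks with any 2 bases between them (TTTC blocks on the other strand), and for a GAS-like core, TTCNNNGAA, which reads the same on both strands. Overlapping matches were counted separately. Windows of the listed genes on 1 chromosome were left out before counting, whereas the counts over all windows kept that chromosome. Iigp1 is not among the 28. The ISRE-like core was found in 15 of the 28 genes, 11 of 22 type I genes and 4 of 5 GTPases, and in 3.44% of all such windows on the genome (3.99% of genes). The GAS-like core was found in 8 of the 28 genes, namely 6 of 22 type I genes, 1 of 5 GTPases and Irf1. It was found in 8.3% of all windows (9.55% of genes). A match describes the letters in a window and does not show a working site. The sequences below are shown because they carry the same core in genes whose transcripts behaved differently: Oas1a and Bst2 rose with SCF, Irgm1 and Igtp did not pass the test, Ifit1 was dim on every array and Ifitm3 fell. Each runs 5′ to 3′ on the strand of the gene, with ISRE-like matches in capitals. The first 5 are the 250 bases before the start, and that of Ifitm3 is the first 30 bases after it, where both of its matches lie.
Oas1a: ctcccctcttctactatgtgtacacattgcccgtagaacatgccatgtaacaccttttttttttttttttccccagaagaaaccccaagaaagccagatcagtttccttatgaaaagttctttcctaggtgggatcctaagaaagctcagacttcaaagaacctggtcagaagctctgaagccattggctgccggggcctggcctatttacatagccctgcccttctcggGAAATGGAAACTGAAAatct
Bst2: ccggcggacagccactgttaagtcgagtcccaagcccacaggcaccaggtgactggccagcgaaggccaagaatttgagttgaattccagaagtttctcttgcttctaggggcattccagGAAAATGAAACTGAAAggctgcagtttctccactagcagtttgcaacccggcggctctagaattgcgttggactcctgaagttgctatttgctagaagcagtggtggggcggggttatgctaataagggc
Irgm1: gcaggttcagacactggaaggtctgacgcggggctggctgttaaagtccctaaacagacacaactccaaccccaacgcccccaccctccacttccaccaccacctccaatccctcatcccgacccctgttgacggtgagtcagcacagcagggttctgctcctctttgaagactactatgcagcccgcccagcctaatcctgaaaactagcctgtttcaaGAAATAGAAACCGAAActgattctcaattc
Igtp: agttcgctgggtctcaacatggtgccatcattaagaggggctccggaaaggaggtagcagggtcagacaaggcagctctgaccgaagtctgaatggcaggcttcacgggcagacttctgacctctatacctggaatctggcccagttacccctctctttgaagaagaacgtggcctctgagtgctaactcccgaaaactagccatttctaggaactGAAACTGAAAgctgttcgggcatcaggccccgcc
Ifit1: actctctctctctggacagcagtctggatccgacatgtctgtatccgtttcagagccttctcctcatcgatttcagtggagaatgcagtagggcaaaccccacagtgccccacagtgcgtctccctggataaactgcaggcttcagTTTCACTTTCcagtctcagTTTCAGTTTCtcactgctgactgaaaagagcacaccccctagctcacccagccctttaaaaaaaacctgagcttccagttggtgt
Ifitm3: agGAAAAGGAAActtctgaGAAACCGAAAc

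These stretches lie at chr5:120907526-120907775 (minus strand), chr8:71537473-71537722 (minus strand), chr11:48871421-48871670 (minus strand), chr11:58199306-58199555 (plus strand), chr19:34640639-34640888 (plus strand) and chr7:141010715-141010744 (minus strand). In Oas1a, Bst2 and Irgm1 the 2 matches overlap to give 3 GAAA blocks in a row. They begin 20 and 14 bases before the start in Oas1a, 130 and 124 in Bst2, and 30 and 24 in Irgm1. Igtp has 1 match, 34 bases before the start, and Ifit1 has 2 on the other strand, at 104 and 85. In Ifitm3 the matches begin at the third base after the start and at base 20. Oas1a, Bst2, Igtp and Ifitm3 also hold a GAS-like match, which overlaps an ISRE-like one in Bst2 and Ifitm3. Among genes whose promoter was searched, the ISRE-like core was present in 2 of 4 risen, 1 of 4 fallen, 8 of 13 not passed and 4 of 7 not tested.

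Of the 35 genes, 25 could be tested, 18 of the type I group, 6 GTPases and Irf1. The comparison asked how the resting interferon programme differs between cells kept with and without SCF. Among the 25, 5 rose with SCF, 5 fell and 15 did not pass (limma, Benjamini-Hochberg adjusted p below 0.05 over all 11429 genes tested). Oas1a, Dhx58, Irf9, Bst2 and Xaf1 rose, and Oasl1, Oasl2, Ifitm3, Usp18 and Isg20 fell. The call rate was 40% of these genes, where 35.5% of all genes tested were called, 18.9% risen and 16.6% fallen. All 10 called genes belong to the type I group, in which 10 of 18 were called (55.6%), and none of the 6 GTPases passed. At an unadjusted p below 0.05 there was 1 GTPase, Ifi47, lower with SCF. No change among the 25 reached 2-fold, while 4.92% of all genes passed the test with a change of at least 2-fold. The median difference was -0.02 on the log2 scale over the 25 genes, 0.02 over the type I genes, -0.11 over the GTPases and 0.02 over all genes. The groups did not overlap for 7 of the 25 genes, or 28% against 19.1% of all genes. The members and groups were chosen with earlier results of these data known, so these counts are descriptions.

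**Figure D1:**
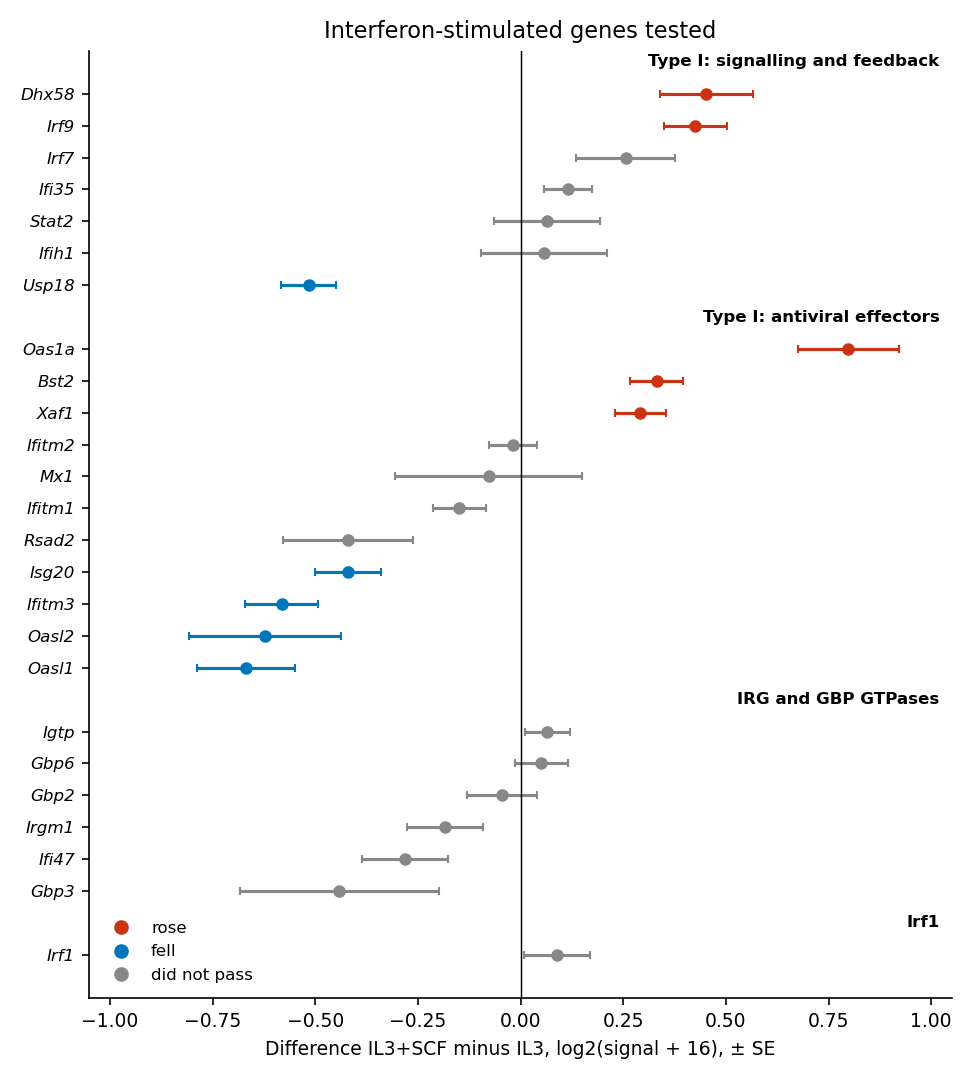
Difference in mean log2(signal + 16) between IL3+SCF and IL3 cultures (x axis) for the 25 genes tested (y axis), as points with the standard error as bars (6 arrays per group). The 10 coloured genes that passed run from -0.67 (Oasl1) to 0.80 (Oas1a), and every GTPase and Irf1 is grey.

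Of the signalling and feedback genes of the type I response, Irf9, the DNA-binding subunit of the ISRE-binding complex, rose. Its signal was lowest at 1685, with a median of 1824 and a highest value of 2156, on the IL3 arrays, and 2266, 2561 and 2737 on the IL3+SCF arrays. All 6 IL3+SCF arrays lay above all 6 IL3 arrays. The log2 difference was 0.43 ± 0.08 (SE, n = 6 each, limma adjusted p = 0.000999). Stat2, the subunit that activates transcription in the same complex, had a log2 difference of 0.06 ± 0.13 (limma adjusted p = 0.736). Its signals ran from 494 to 745 in IL3 and from 495 to 803 in IL3+SCF, so the groups covered nearly the same range. A dimmer probe set of Stat2 gave 0.41 and did not pass either (adjusted p over probe sets = 0.111).

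Usp18, which removes ISG15 from proteins and blocks signalling at IFNAR2, fell. It had signals of 3056, 3183 and 3357 (lowest, median, highest) in IL3 and of 1899, 2250 and 2594 in IL3+SCF. The groups did not overlap, and the IL3 mean was 3207 ± 107 (SD, n = 6). The log2 difference was -0.52 ± 0.07 (limma adjusted p = 7.022e-05), and the fitted level of signal + 16 fell by 30.1%. Irf9 and Usp18, an activator and a brake of the same pathway, thus had differences of opposite sign.

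Of the cytosolic RNA sensors, Dhx58 (LGP2), a regulator of the RIG-I-like receptors, rose from signals of 192, 233 and 285 (lowest, median, highest) to 277, 305 and 411. The highest IL3 array lay just above the lowest IL3+SCF array, and the log2 difference was 0.45 ± 0.11 (limma adjusted p = 0.00733). The 2 other probe sets of Dhx58 were dim on all 12 arrays, dim meaning at or below the 40th percentile of the array's signals, which lay between 61.1 and 102. Ifih1, the sensor MDA5, had a log2 difference of 0.06 ± 0.15 (adjusted p = 0.810), with signals of 174 to 318 in IL3 and 192 to 286 in IL3+SCF. The highest IL3 values of Ifih1 were those of replicates 4 and 6, at 309 and 318, and the other 4 arrays reached 223.

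Irf7, the factor that amplifies interferon production, had signals of 69.9 to 125 in IL3 and 104 to 151 in IL3+SCF (log2 difference 0.26 ± 0.12, adjusted p = 0.118). Ifi35, which binds the transcription regulator NMI, had 0.12 ± 0.06 (adjusted p = 0.146) from its brightest probe set. Of its 2 other probe sets 1 passed, with 0.23 (adjusted p over probe sets = 0.0115, where 30.9% of all probe sets were called), and 1 did not, with 0.14. Irf1, a factor induced by both kinds of interferon, had signals of 1388 to 1876 in IL3 and 1548 to 1923 in IL3+SCF (log2 difference 0.09 ± 0.08, adjusted p = 0.426). The probe set of Isg15, a ubiquitin-like modifier, is annotated to a further gene as well and did not enter the test of genes. As a probe set it had a log2 difference of 0.27 and did not pass (limma adjusted p over probe sets = 0.253).

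Among the antiviral effectors, the 2'-5' oligoadenylate synthetase gene Oas1a had the largest rise of the 25 genes. The Oas enzymes sense double-stranded RNA and activate RNase L, and Oasl1 and Oasl2 encode relatives that are named synthetase-like. Oas1a had signals of 448, 475 and 703 (lowest, median, highest) in IL3 and 785, 928 and 1091 in IL3+SCF. Its groups did not overlap, and the IL3 arrays of replicates 5 and 6 were nearest to the IL3+SCF arrays. The log2 difference was 0.80 ± 0.12, or 73.9% higher in signal + 16 (limma adjusted p = 0.000316).

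Oasl1, a repressor of Irf7 translation, fell from signals of 76.6, 99.2 and 122 to 39.99, 56.7 and 76.7, with a log2 difference of -0.67 ± 0.12 (limma adjusted p = 0.000865). The groups overlapped slightly, with the highest IL3+SCF array just above the lowest IL3 array, and the signal was dim on 1 IL3 and 5 IL3+SCF arrays. Oasl2 fell from signals of 83.1, 130 and 198 to 52.5, 73.9 and 102, a log2 difference of -0.62 ± 0.19 (adjusted p = 0.0197). It was dim on 1 IL3 and 4 IL3+SCF arrays, and its call was lost with the replicate number as a block (adjusted p = 0.0626). Oas1a and the 2 Oas-like genes thus moved in opposite directions. Oas2 and Oas3 could not be tested: Oas3 was dim on all 12 arrays and Oas2 on all but 1 IL3+SCF array.

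The Ifitm genes encode small membrane proteins that block the fusion of viruses with endosomes. Ifitm3 fell from signals of 14545, 15426 and 17048 (lowest, median, highest) to 9050, 10288 and 12481. Every IL3+SCF array lay below every IL3 array, and the log2 difference was -0.58 ± 0.09 (limma adjusted p = 0.000289). In signal + 16 the fitted level fell by 33.2%. Its relatives had smaller differences that did not pass, -0.15 ± 0.06 for Ifitm1 (adjusted p = 0.0906) and -0.02 ± 0.06 for Ifitm2 (0.839). Ifitm1 had signals of 33559 to 41660 in IL3 and 30345 to 35550 in IL3+SCF, and Ifitm2 of 19657 to 24186 and 19919 to 22777, so the groups overlapped in both. The differences between the family members were not tested against each other.

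Bst2 (tetherin), which holds budding viruses at the cell surface, rose. It had signals of 1903, 2174 and 2326 (lowest, median, highest) in IL3 and 2392, 2781 and 2907 in IL3+SCF, with no overlap and a log2 difference of 0.33 ± 0.06 (limma adjusted p = 0.00157). Xaf1, an antagonist of the apoptosis inhibitor XIAP, rose from 924, 984 and 1051 to 1058, 1234 and 1331, where the ranges nearly touched but did not overlap (log2 difference 0.29 ± 0.06, adjusted p = 0.00271). Another probe set of Xaf1 was dim on all 12 arrays. Isg20, an exonuclease that degrades single-stranded RNA, fell from 287, 319 and 358 to 197, 241 and 272, again without overlap (-0.42 ± 0.08, adjusted p = 0.00149).

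Rsad2 (viperin), which makes a chain-terminating nucleotide, had the same log2 difference as Isg20, -0.42, with a larger error, and did not pass (SE 0.16, adjusted p = 0.0564). Its signals were 197 to 393 in IL3 and 172 to 269 in IL3+SCF, and a dimmer probe set gave -0.11. Rsad2 passed under 6 of the 24 alternatives that tested it, lower with SCF in each. Among them were IL3 replicate 5 left out (adjusted p = 0.0114) and IL3+SCF replicate 6 left out (0.0417). Over the 24 its adjusted p ran from 0.00789 to 0.219. The GTPase gene Mx1 had signals of 87.8 to 278 in IL3 and 133 to 235 in IL3+SCF (log2 difference -0.08 ± 0.23, adjusted p = 0.823).

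**Figure D2:**
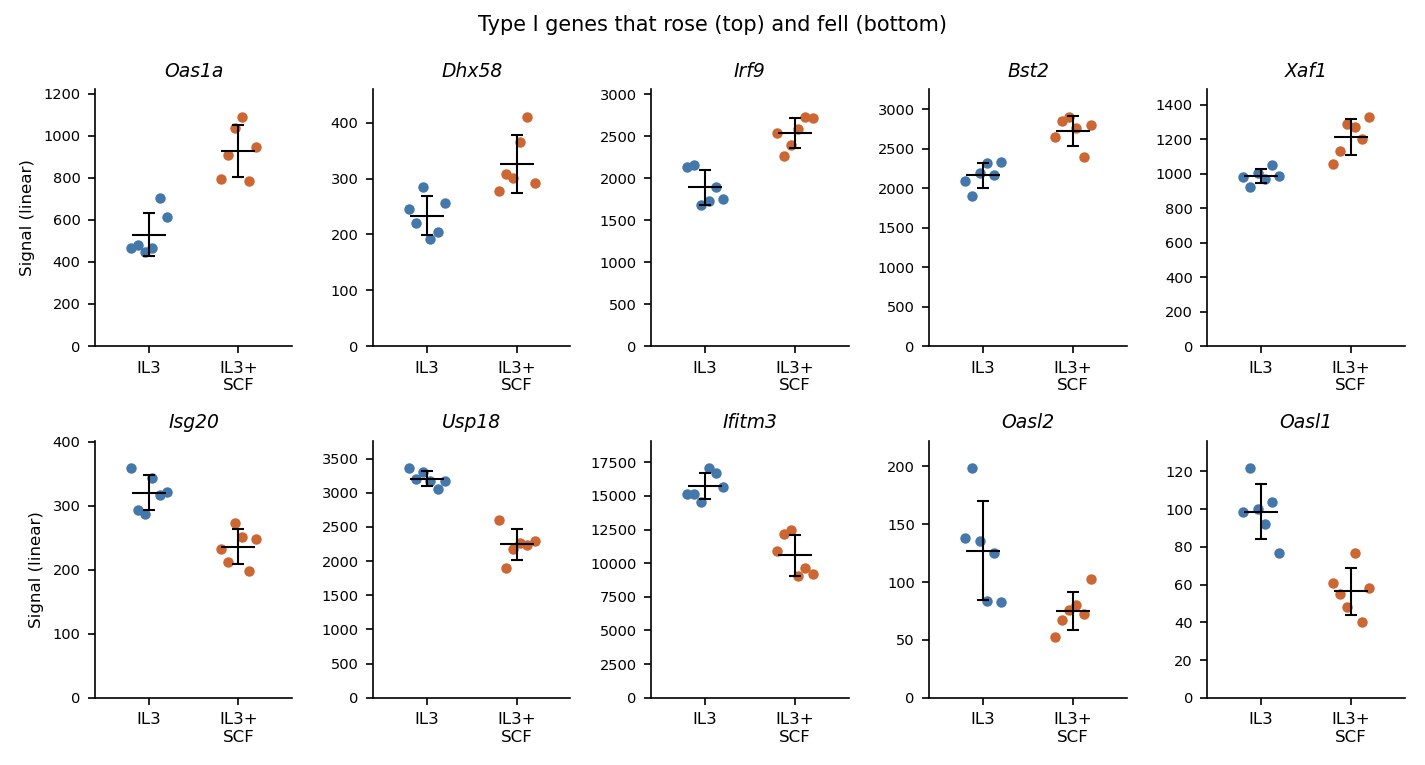
Linear signal (y axis, from 0) on each array of the 5 type I genes that rose (top row) and the 5 that fell (bottom row), by culture (x axis), with 6 arrays per group as points and the mean ± SD as bars. In 7 of the 10 panels the groups do not overlap, the exceptions being Dhx58, Oasl1 and Oasl2.

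Several of the best known interferon-induced genes were dim on most or all of the arrays. Ifit1, which binds viral RNA lacking a methylated cap, was dim on all 12 arrays, with signals up to 72.4. Mx2 reached 25.8 and Oas3 14.2, and both probe sets of the GTPase gene Iigp1 stayed at or below 60.5. Cmpk2, a mitochondrial nucleotide kinase gene beside Rsad2, was above the dim level on 1 IL3 array only. Ifit3 had signals of 30.3 to 155 in IL3, above the dim level on 4 arrays, and of 11.8 to 81.4 in IL3+SCF, where all were dim. Ifit2 had signals of 57.4, 79.0 and 146 (lowest, median, highest) in IL3 and 31.9, 38.5 and 46.4 in IL3+SCF, so that its groups did not overlap although 11 of the 12 values were dim. With no filter on dim probe sets Ifit2 was tested and was lower with SCF (log2 difference -0.85, limma adjusted p = 0.00333), while the other genes that only then could be tested did not pass. Ifi44 had no annotated probe set and could not be tested, though its promoter was among those searched.

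The IRG and GBP GTPases of the interferon gamma response were above the dim level on every array, apart from Iigp1, and none passed the test. Igtp (Irgm3), one of the regulatory IRG proteins, had signals of 1342, 1363 and 1569 (lowest, median, highest) in IL3 and 1422, 1444 and 1628 in IL3+SCF, with a log2 difference of 0.07 ± 0.06 (limma adjusted p = 0.395). Irgm1, the regulator of IRG loading and autophagy, had 1445, 1715 and 1928 against 1287, 1470 and 1747 (-0.18 ± 0.09, adjusted p = 0.146). In both genes the ranges overlapped over most of their length.

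Ifi47 (IRG-47) came nearest to the threshold of the GTPases, with signals of 3320, 4031 and 4835 in IL3 and 2741, 3256 and 3975 in IL3+SCF and a log2 difference of -0.28 ± 0.10 (limma adjusted p = 0.0539). It passed under 8 of 25 alternative settings, which included the array weights (adjusted p = 0.0459) and each of IL3 replicates 1 and 2 and IL3+SCF replicate 6 left out (0.0401, 0.0298 and 0.0231). Over all 25 its adjusted p ran from 0.0231 to 0.209.

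Of the guanylate-binding proteins, large GTPases that coat pathogen vacuoles, Gbp2 had a log2 difference of -0.04 ± 0.09 (adjusted p = 0.724), and -0.13 from its other probe set. Gbp3 had the largest standard error of the 6 GTPases on the log2 scale, with signals of 476 on replicate 4 and 469 on replicate 6 of IL3. The remaining IL3 values were 211 to 256, and those of IL3+SCF 139 to 360. Its log2 difference was -0.44 ± 0.24 (adjusted p = 0.180), and it passed under 1 of the alternatives, the replicate block. Gbp6 gave 0.05 ± 0.07 from its brightest probe set (adjusted p = 0.584) and 0.32 ± 0.07 from the other, which passed (adjusted p over probe sets = 0.00311). The second probe set had mean signals of 9257 in IL3 and 11549 in IL3+SCF. Genes of the Gbp family are close in sequence, and the files do not show which copies each probe set detects.

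**Figure D3:**
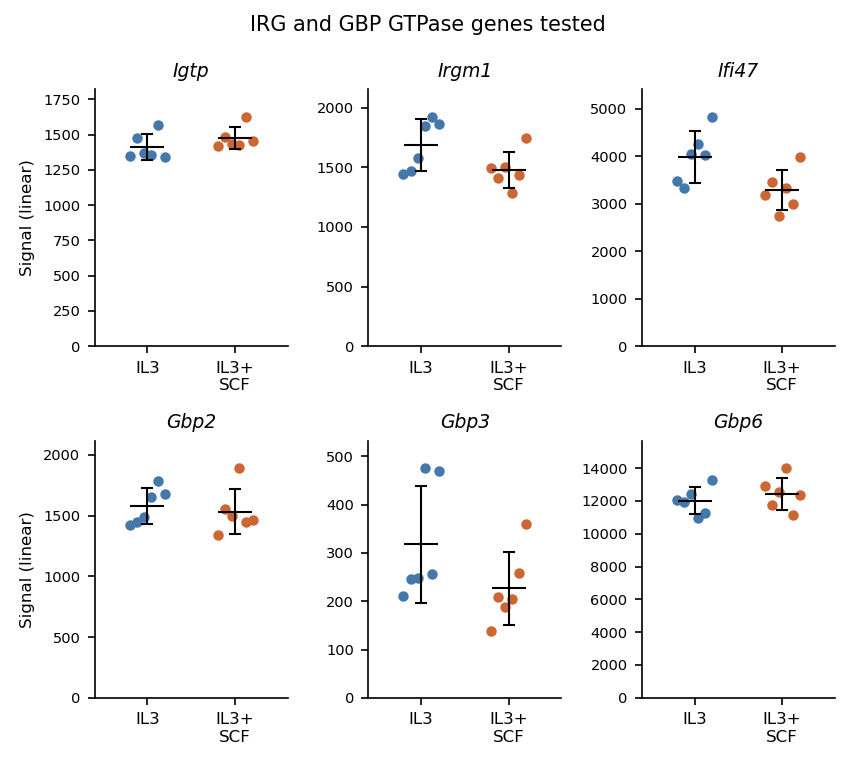
Linear signal (y axis, from 0) of the 6 IRG and GBP GTPase genes tested, by culture (x axis), with 6 arrays per group as points and the mean ± SD as bars. The groups overlap in all 6 panels, and IL3 replicates 4 and 6 stand at 476 and 469 for Gbp3.

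The type I and the GTPase genes were also set side by side array by array, as the mean log2(signal + 16) over the tested genes of each group. For the type I genes this mean was 9.99 ± 0.05 (SD, n = 6) without SCF and 9.95 ± 0.06 (SD, n = 6) with it. The difference of -0.04 is below either SD. For the GTPases it was 10.94 ± 0.15 and 10.80 ± 0.11, a difference of -0.14, which is below the SD in IL3 and above that in IL3+SCF. These SDs describe the spread of single arrays and not the error of a difference between means, and neither difference was tested. The type I mean minus the GTPase mean was 0.10 higher in IL3+SCF, with SDs of 0.18 and 0.09. Since the 5 risen and 5 fallen type I genes offset each other in such a mean, it does not show their changes. The GTPase mean, taken over 6 genes, was more spread over the arrays of 1 group than the type I mean, taken over 18. The part of the number of genes in this was not tested. The values below are those of the GTPase mean. In IL3 it ran from 10.76 on replicate 1 to 11.15 on replicate 6, with replicates 4, 5 and 6 above replicates 1, 2 and 3. In IL3+SCF it ran from 10.67 on replicate 1 to 10.99 on replicate 6.

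**Figure D4:**
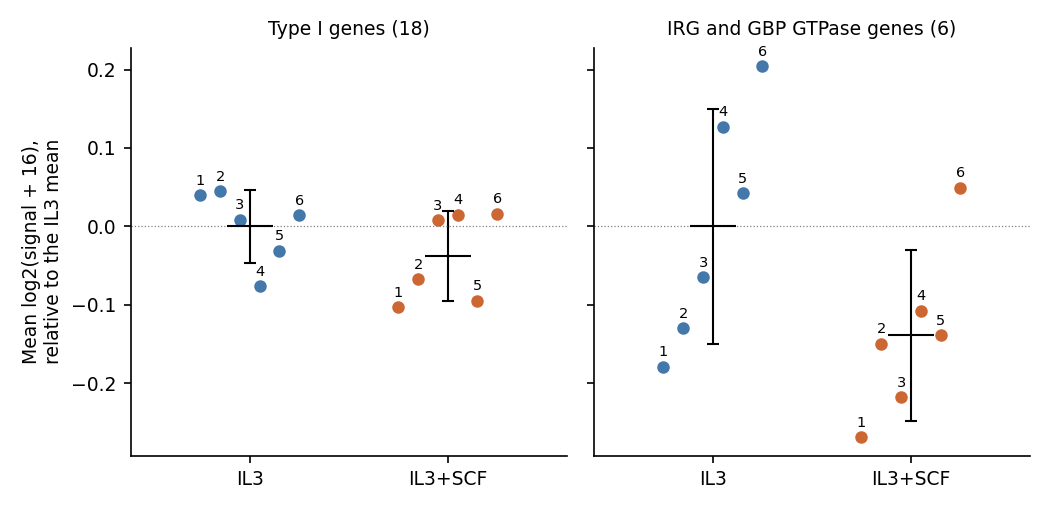
Mean log2(signal + 16) over the 18 type I genes (left) and the 6 GTPase genes (right) on each array, relative to the mean of the IL3 arrays (y axis), by culture (x axis). Points are arrays labelled with their replicate number and bars the mean ± SD (n = 6). The SD of the IL3 arrays is 0.05 for the type I genes and 0.15 for the GTPases.

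Other genes of the interferon pathway, 132 in 8 lists of which 110 matched the annotation, were read in the same way. Among the 84 that could be tested there were 24 rises and 9 falls, and 51 did not pass, a call rate of 39.3% beside 35.5% of all genes. The median difference was 0.08 on the log2 scale, where that of all genes was 0.02. The number risen was 13 under median centring of the arrays and 15 without IL3 replicates 3 and 6. The array medians averaged 0.02 higher on the log2 scale in IL3+SCF.

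No interferon gene could be tested. The probe sets of Ifna2, Ifna4, Ifna5, Ifnab, Ifnb1 and Ifng were dim on all 12 arrays, and that of Ifna1 was above the dim level on 1 IL3+SCF array. Of 8 receptor and kinase genes tested 4 rose and 0 fell (limma, with 1 lower at an unadjusted p below 0.05). Of all genes tested 18.9% rose and 16.6% fell. Il10rb, a chain of the interferon lambda and interleukin 10 receptors, rose by 0.64 ± 0.06 on the log2 scale (limma adjusted p = 1.125e-05), and Ifngr2 rose by 0.63 ± 0.16. The type I receptor chains Ifnar1 and Ifnar2 rose by 0.21 and 0.30, named after their values were seen. Median centring ended the call of Ifnar1, among other settings, and taking the most variable probe set ended those of Ifnar2 and Il10rb. Jak1 and Jak2 had log2 differences of -0.15 and -0.05 and did not pass.

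Among 10 brakes of the pathway 2 rose and 0 fell (also 0 lower at an unadjusted p below 0.05), a call rate of 20%. Pias3, an inhibitor of STAT3, rose by 0.26, and the phosphatase gene Ptpn2 by 0.16. Pias3 did not pass when its probe sets were averaged or the most variable was taken. Ptpn2 did not pass under median centring, under the replicate block, or without IL3 replicates 3 and 6. Of 14 nucleic acid sensing genes 5 rose and 1 fell, a call rate of 42.9% beside 35.5% of all genes. Tmem173 (STING), the adaptor of cytosolic DNA sensing, rose by 0.47 ± 0.08 (limma adjusted p = 0.000408) under every alternative tried, and the kinase gene Ikbke by 0.35, a call that held in 12 of 25 alternatives. Samhd1, a nuclease that lowers the pool of deoxynucleotides, fell by 0.35, but its most variable probe set gave 0.04, and it did not pass under median centring either. The kinase gene Tbk1 had 0.03. In the list of other IRF genes 1 of 3 rose and 1 fell, and both are partners of IRF2 rather than IRF factors: Irf2bp1 at 0.20, a call that held in 9 of 25 alternatives, and Irf2bp2 at -0.24, lost with the most variable probe set.

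Of 35 further type I response genes 12 rose and 5 fell, a call rate of 48.6% beside 35.5% of all genes. Ifi27l2a, a small mitochondrial protein gene, rose by 1.26 ± 0.28 (limma adjusted p = 0.00371) from a mean signal of 424 to 985, and Sp100, a nuclear body protein gene, by 0.62 ± 0.07 (3.880e-05). Lgals3bp, a secreted glycoprotein gene, fell by 0.93 ± 0.11 (3.420e-05), and Tdrd7 fell by 0.65 ± 0.15. Among the 3 further IRG and GBP genes tested, Gbp8 fell by 1.39 ± 0.18, from a mean signal of 1356 to 501 (limma adjusted p = 8.315e-05), while Gbp7 and Irgm2 had -0.10 and 0.28 and did not pass. In antigen presentation 1 of 11 was called, Nlrc5, the activator of MHC class I genes, which fell by 1.20 ± 0.20 from 709 to 293 (adjusted p = 0.000552). B2m and Tapbp, of the class I complex and its loading, had -0.09 and 0.01 and did not pass. Ifi27l2a, Sp100, Lgals3bp, Tdrd7, Gbp8 and Nlrc5 passed with the same sign under all 25 alternatives.

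**Figure D5:**
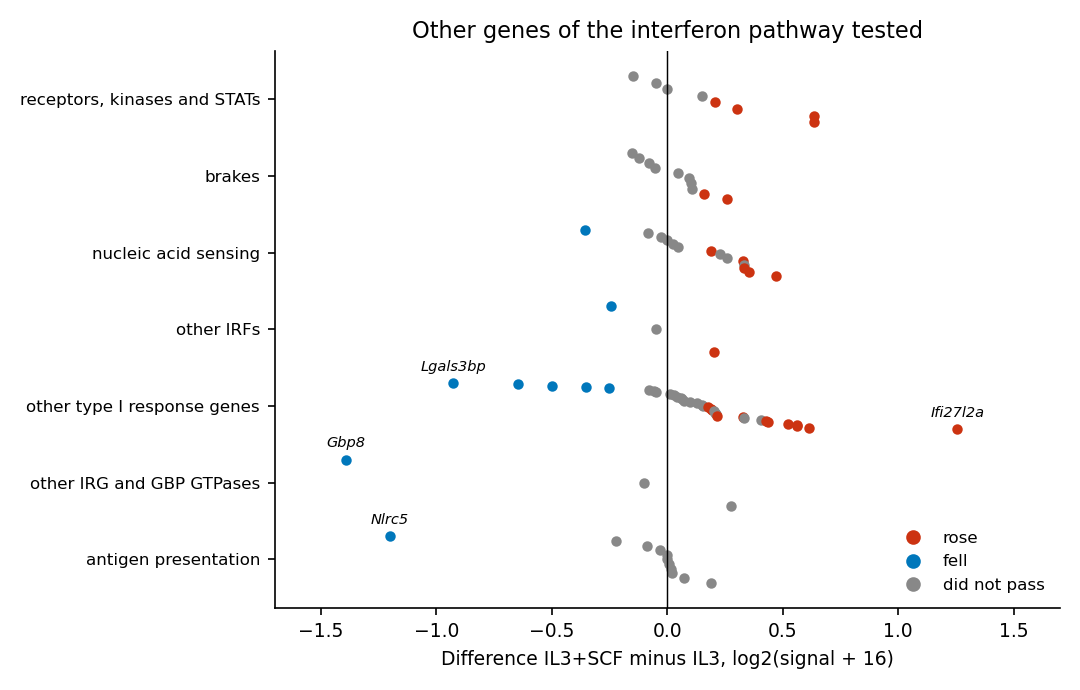
Difference in mean log2(signal + 16) between IL3+SCF and IL3 (x axis) of the 84 other interferon pathway genes tested, each a point, by list (y axis). Gbp8 (-1.39), Nlrc5 (-1.20) and Ifi27l2a (1.26) are the 3 genes past 2-fold.

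The labelled cell type was borne out by its markers, since all 9 mast cell markers with a probe set were above the dim level on all 12 arrays and 0 passed the test (limma; 1 was higher at an unadjusted p below 0.05). Markers of some other cells differed between the cultures, and those of others did not pass. The summed signal of 8 monocyte and macrophage markers was 12945 to 17733 in IL3 and 4157 to 5187 in IL3+SCF, and of 7 tested 4 fell (Cx3cr1, Lyz1, Lyz2 and Fcgr1) and Cd68 rose, while Csf1r was dim on 5 arrays of each group. Mmp8 was the neutrophil marker tested and did not pass (limma adjusted p = 0.374). The summed signal of 9 neutrophil markers was 250 to 6994 in IL3 and 188 to 313 in IL3+SCF. For 7 plasmacytoid dendritic cell markers it was 3943 to 4942 and 4561 to 5956, 0 of 4 tested passed (limma; 2 were higher at an unadjusted p below 0.05), and the defining marker Siglech was dim on all 12 arrays. Of 5 B cell markers Ighm was tested and fell by 2.55 on the log2 scale (limma adjusted p = 0.000146). Cd79b, Ms4a1 and Pax5 were dim on all 12 arrays, and Cd79a had mean signals of 70.7 in IL3 and 81.5 in IL3+SCF. The sums of the 5 were 218 to 595 and 80.4 to 259. For 6 T and NK cell markers they were 96.2 to 331 and 102 to 227, and Nkg7, the marker tested, fell from a mean signal of 114 to 41.9 (adjusted p = 0.0412). Of 3 basophil markers, with sums of 18035 to 22547 and 22117 to 24473, Cd200r3 and Il3ra rose by 0.31 and 0.44, and Mcpt8 did not pass. For 7 conventional dendritic cell markers the sums were 279 to 561 and 351 to 547, and 0 of 2 tested passed (limma; 1 was higher at an unadjusted p below 0.05). In bulk RNA fewer cells of a type and less RNA per cell cannot be told apart. The part of these cells in the results was not tested.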

How the data were processed

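The authors deposited linear probe set intensities for the 12 arrays. The submitters' processing notes name GCOS 1.4. How background was corrected and to what target arrays were scaled is not given in the sources used here. Since the 2% trimmed mean of the intensities was 1250.01 on each array (medians 151 to 203), they were not normalized again. The number of arrays limits the precision.

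The 64 control probe sets among 45101 were dropped. By the annotation, 34958 carried a single gene symbol, 932 more than 1 and 9211 no symbol, and only the first kind named a gene. The scale was log2(signal + 16), which understates differences between dim signals. Probe sets above the array's 40th percentile on 6 or more arrays, the size of the smaller group, entered the fit (27167), each gene through its brightest one. Of the 45 single-symbol probe sets of the members, 31 entered. The test was limma's moderated linear model (version 3.58.1, R 4.3.3), two-sided, without covariates. P-values were adjusted by Benjamini-Hochberg over all genes, with a threshold of 0.05, or over all kept probe sets where a further probe set of a gene is given. Figures used matplotlib 3.10.9 under Python 3.11.15.

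The script was tested on simulated arrays with independent noise and 50 changed genes per size. It recovered 34% of the genes shifted by 0.3 (log2), 66% at 0.5, 84% at 0.8 and 96% at 1.5, and made 5 false calls in 11229 unshifted genes. In the data 35.5% of genes were called, a far larger share than was shifted here. Since the adjustment depends on that share, these rates do not carry over to the data.

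Every member is named. Each pathway list contributes up to 2 risen and 2 fallen genes of largest change and up to 2 of the brightest that did not pass. The members, lists, tests and alternatives were chosen with earlier results of these data known. The alternatives changed the normalization (quantile, median centring), the pseudocount (1 or 64), the filter (none, or the 60th percentile), the choice of probe set (mean, or most variable), the model (trend and robust eBayes, array weights, a replicate block) and the arrays (each left out in turn, IL3 replicates 4 and 5, IL3 replicates 3 and 6).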

Additional observations from a re-analysis of the deposited data

Results flagged for a closer look

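In 54 groups of 6 values (each tested gene and both list means in each culture) 1 value stood apart from its group by Dixon's criterion, where chance gives about 1 in 20 groups. It was the Igtp signal of IL3+SCF replicate 5, at 1628, with the next array at 1486.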

How the results depend on the processing

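Over 25 alternatives, 9 of the 10 called genes passed with the same sign wherever they were tested. The exception was Oasl2 under the replicate block (adjusted p = 0.0626). With a 60th percentile filter, which tests fewer genes, 3 of the interferon-stimulated genes and 2 of the type I genes fell. The number of GTPases called, 0, became 1 with a pseudocount of 64, a 60th percentile filter, the mean of probe sets, the most variable probe set, trend and robust eBayes or array weights, and 0 to 1 with an array left out. The other pathway genes risen numbered 13 under median centring of the arrays and 15 without IL3 replicates 3 and 6. Genes that passed in neither case changed sign near 0: Ifitm2 gave 0.0112 with quantile normalization, 0.0175 with array weights and 0.0236 without IL3 replicates 4 and 5, where Gbp2 gave 0.0185 and Gbp6 -0.00235. With 1 array left out the log2 difference ran from -0.045 to 0.0148 for Ifitm2, from -0.274 to 0.0262 for Mx1, from -0.0158 to 0.147 for Ifih1 and from -8.04e-05 to 0.136 for Stat2. The causes were not tested.

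The replicate block called 2 GTPases, Ifi47 and Gbp3, and among the 25 interferon-stimulated genes changed no other call but that of Oasl2. The labels do not say that the numbers pair the samples, and they were not taken to do so. Over all genes tested, same-numbered arrays correlated between -0.189 and 0.356 in their deviations from the group means, above 0.1 in 2 of 6 pairs. The GTPase mean, however, was lowest on replicate 1 and highest on replicate 6 in both cultures. Whether the numbers pair the arrays was not tested for the GTPases alone.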
